A study of Mus musculus with 6 samples.

Results

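The CC chemokine genes were followed across the hippocampal transcriptome after cerebral ischemia/reperfusion (I/R). They were Ccl2, Ccl3, Ccl4, Ccl5, Ccl6, Ccl7, Ccl9, Ccl12, Ccl17 and Ccl20, chosen by name from the deposited table, and all 10 had a row among its 41386 genes. CC chemokines are small secreted proteins with 2 neighbouring cysteines near their start that bind G protein-coupled receptors on leukocytes and guide these cells along a gradient. In injured brain they are known to be made by microglia, astrocytes, endothelial cells and leukocytes that have entered the tissue, and the CCL2 and CCR2 pair is known for drawing monocytes from blood. The ligands are taken here in 4 groups: CCL2, CCL7 and CCL12 act on CCR2, CCL3, CCL4 and CCL5 attract macrophages and T cells, CCL6 and CCL9 act on CCR1 in rodents, and CCL17 and CCL20 act on CCR4 and CCR6.

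Both groups held hippocampus of 56-day-old wild type C57BL/6 mice (C57BL/6J in the study's methods), with no transgene. In the I/R group the middle cerebral artery was occluded for 1.5 h with a filament and reperfused for 24 h (3 libraries), and in the sham group mice were operated on without occlusion (3 libraries). Per the study's methods the mice were male, the hippocampi came from the occluded side, and each library was made from several pooled hippocampi, so the spread below is between pools and not between animals. Reads were counted against the Ensembl annotation of another strain, BALB/cJ, and coordinates of genes below are on that assembly. The libraries held 37493042 to 44788547 counts.

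The tissue label was checked against neuronal markers of the hippocampus. All 8 genes of that list had counts in every library, with a summed level of 344 to 686 counts scaled to library size (CPM) in I/R and 1194 to 1234 CPM in sham, and 6 of 8 were called lower in I/R. Choroid plexus, a secretory tissue beside the hippocampus, entered the libraries unevenly. Its 8 markers summed to 139 and 171 CPM in I/R replicate 3 and sham replicate 1, and to 2268 to 6226 CPM in the other 4 libraries, and 0 of 8 were called by edgeR, DESeq2 or limma-voom or had an unadjusted p under 0.05. I/R replicate 1 lay farthest from sham on the first principal component.

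A gene was called at an edgeR adjusted p under 0.05 with a fold change over 1.2. By this rule 8 of the 9 members tested were called higher in I/R, and Ccl17 was not called. Ccl20 was below the count filter. Of all 18569 genes tested, 21.8% were called higher. The median log2 fold change was 5.23 over the 9 members and 0.03 over all genes. In all 9 members tested the I/R libraries lay above the sham libraries without overlap, as they did in 29.3% of all genes tested. Of the 9 members, 6 passed the count filter only through their I/R libraries, so these counts describe the members and are not support for a difference. In bulk RNA, more cells that make a transcript and more transcript per cell cannot be told apart.

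**Figure D1:**
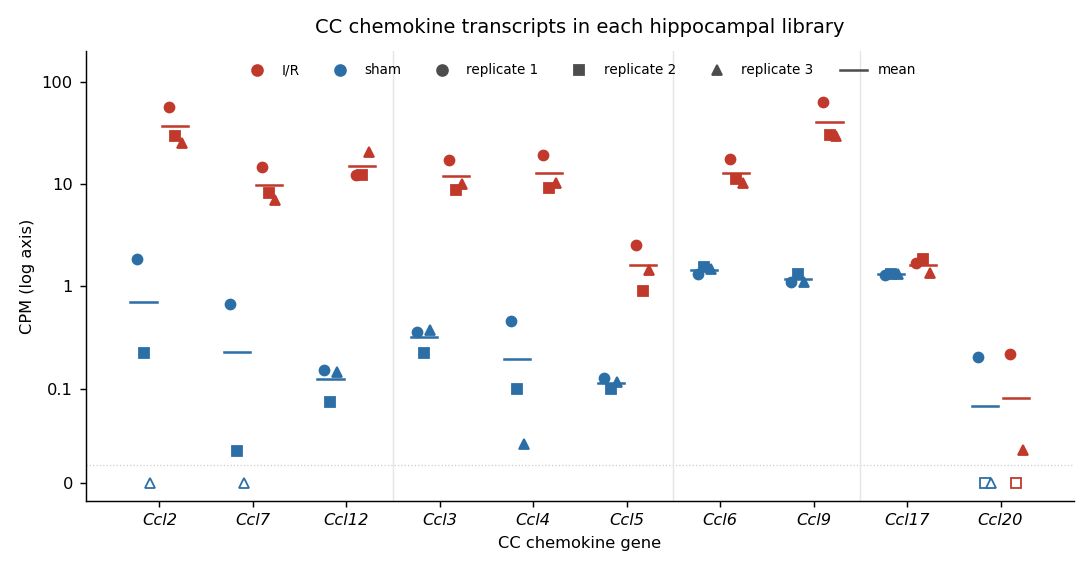
CPM (log axis, TMM-scaled) of the 10 CC chemokine genes in each library, I/R in red and sham in blue, with 1 symbol per replicate and a bar at the group mean; open symbols on the bottom line are libraries with 0 counts. The I/R points lie above the sham points for every gene but Ccl20, most narrowly for Ccl17, and sham replicate 1 lies above the other sham libraries for Ccl2, Ccl7 and Ccl4.

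The CCR2 ligands are taken first. Ccl2 encodes the main monocyte attractant of the family and lies on chromosome 11 from 80472399 to 80474281. In the order of replicates 1, 2 and 3, which is kept below, it had 2589, 1172 and 1015 counts in I/R against 73, 9 and 0 in sham. All I/R libraries were high, and within sham nearly all counts (89.0%) were in replicate 1. The level was 37.2 ± 17.2 CPM in I/R against 0.697 ± 1.02 CPM in sham (SD, n = 3 each), for a log2 fold change of 5.70 ± 0.90 (SE, adjusted p = 0.00274 by edgeR).

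Ccl7, whose product also attracts monocytes, lies next to Ccl2 from 80482520 to 80484333. Its counts were 665, 326 and 278 in I/R against 26, 1 and 0 in sham. It followed the library pattern of Ccl2, and 96.3% of its sham counts were in replicate 1. Ccl7 rose by 5.38 ± 0.88 on the log2 scale (SE, adjusted p = 0.00273 by edgeR). The estimates of these neighbours depended on sham replicate 1: without it the log2 fold changes were 8.24 for Ccl2 and 9.23 for Ccl7, both still called.

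Ccl12 encodes another CCR2 ligand, found in mouse and not in human, and lies from 80538146 to 80539701. It had 564, 497 and 821 counts in I/R against 6, 3 and 5 in sham. Unlike Ccl2 and Ccl7 it was low in all 3 sham libraries, and its highest library was I/R replicate 3. The level was 15.1 ± 4.69 CPM in I/R against 0.124 ± 0.0439 CPM in sham. The log2 fold change of 6.91 ± 0.36 (SE, adjusted p = 0.000116 by edgeR) was the highest of the 9 members in this fit, and its 95% interval ran from a 67.2-fold to a 214-fold increase. The rank was not stable: without sham replicate 1 Ccl12 was at 7.09, below Ccl7, Ccl2 and Ccl4, and by limma-voom it was at 6.80, below Ccl2 at 7.47 and Ccl7 at 7.03.

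In the macrophage and T cell attracting group, Ccl3 and Ccl4 encode the macrophage inflammatory proteins 1 alpha and 1 beta. Ccl3 (chromosome 11, 82177289 to 82178800) had 784, 353 and 399 counts in I/R against 14, 9 and 13 in sham. The sham libraries were alike, and the log2 fold change was 5.23 ± 0.37 (SE, adjusted p = 0.000215 by edgeR). Ccl4 (82192028 to 82194127) had 879, 363 and 411 counts in I/R against 18, 4 and 1 in sham. All I/R libraries were high, and 78.3% of its sham counts were in replicate 1. Its log2 fold change was 5.99 ± 0.65 (SE, adjusted p = 0.000678 by edgeR), and 7.53 without sham replicate 1.

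Ccl5, which encodes RANTES, a product known from T cells, lies from 82048224 to 82052964 and had few counts. There were 115, 36 and 58 counts in I/R against 5, 4 and 4 in sham, which put every I/R library above every sham library. Its level was 1.63 ± 0.827 CPM in I/R against 0.114 ± 0.0149 CPM in sham, for a log2 fold change of 3.80 ± 0.52 (SE, adjusted p = 0.00147 by edgeR).

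The rodent CCR1 ligands were present in every sham library. Ccl6 (82116380 to 82121587) had 796, 452 and 407 counts in I/R against 52, 63 and 51 in sham. Its sham libraries were close together, and it rose by 3.16 ± 0.25 on the log2 scale (SE, adjusted p = 0.000291 by edgeR). Ccl9 (82100932 to 82106649) had 2870, 1222 and 1179 counts in I/R against 43, 54 and 38 in sham. Its sham libraries were close together as well, and I/R replicate 1 stood above the other I/R libraries for both genes. The level of Ccl9 was 41.0 ± 19.1 CPM in I/R against 1.18 ± 0.130 CPM in sham, for a log2 fold change of 5.12 ± 0.36 (SE, adjusted p = 0.000215 by edgeR).

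Ccl17 encodes a CCR4 ligand and lies on chromosome 8 from 92579038 to 92580620. It had 78, 74 and 54 counts in I/R against 51, 54 and 46 in sham. Its level was 1.64 ± 0.259 CPM in I/R against 1.32 ± 0.0159 CPM in sham, with I/R replicate 3 at 1.35 CPM just above the highest sham library at 1.34 CPM. The log2 fold change was 0.31 ± 0.26 (SE, adjusted p = 0.368 by edgeR), and the 95% interval of the fold ran from 0.822 to 1.86. Ccl17 was called higher by limma on the deposited FPKM (fragments per kilobase of transcript, scaled to library size), which carry no composition factor, at 0.41 on log2(FPKM + 1) (limma adjusted p of 0.0279) and 0.53 on log2(FPKM + 0.1) (0.0328). With library size as the only scaling of the counts it was at 0.56 and not called (edgeR adjusted p of 0.117).

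Ccl20 encodes the ligand of CCR6 and lies on chromosome 1 from 81242269 to 81244670. Its counts were 10, 0 and 1 in I/R against 8, 0 and 0 in sham. Within each group nearly all counts were in replicate 1, the groups overlapped, and a difference was not detectable at this depth.

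**Figure D2:**
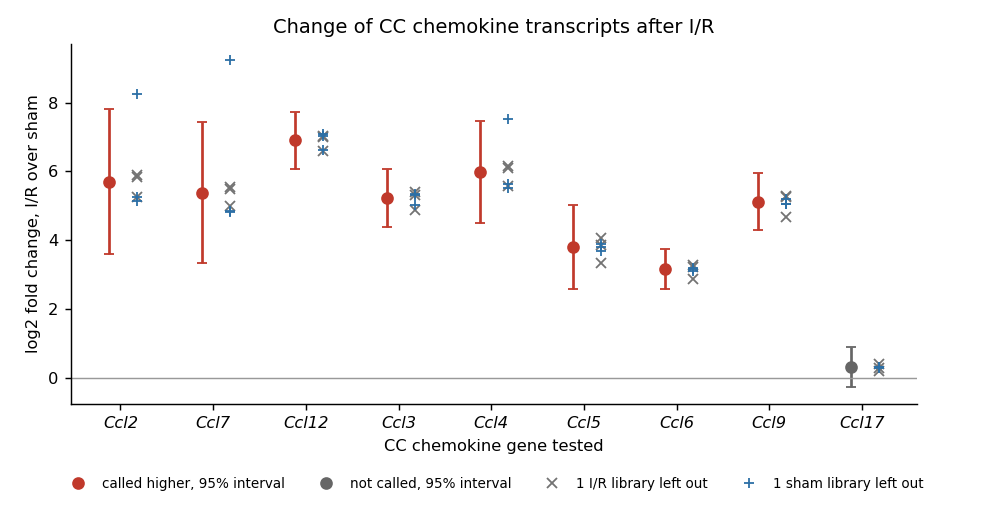
Log2 fold change (I/R over sham, edgeR) of the 9 CC chemokine genes tested, with 95% intervals, called genes in red and Ccl17 in grey; crosses and plus signs beside each give the estimate with 1 I/R or 1 sham library left out. The estimates of Ccl12, Ccl3, Ccl6 and Ccl9 stay close together, while those of Ccl2, Ccl7 and Ccl4 move up to 8.24, 9.23 and 7.53 without sham replicate 1.

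Within the I/R group most members shared a library pattern. I/R replicate 1 was the highest of the 3 for Ccl2, Ccl7, Ccl3, Ccl4, Ccl5, Ccl6 and Ccl9, at 1.63 (Ccl6) to 2.15 (Ccl5) times the mean CPM of replicates 2 and 3. For Ccl12 it was the lowest, at 0.752 times that mean, and for Ccl17 replicate 2 was the highest and replicate 1 was at 1.07 times that mean. Without both replicates numbered 1, an alternative chosen after seeing the data, 8 members were still called higher.

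Levels of different genes were compared on FPKM, which are per transcript length. The 10 members summed to 251, 135 and 146 FPKM in I/R and 8.62, 5.56 and 5.46 FPKM in sham. The I/R libraries were all above the sham libraries, by 27.1 times on the means, and the exact two-sided permutation p of 0.1 is the smallest that 3 against 3 libraries can give. By ligand group, the CCR2 ligands had 89.1 ± 25.2 FPKM in I/R and 1.16 ± 1.46 FPKM in sham, Ccl3, Ccl4 and Ccl5 together 41.9 ± 19.6 and 0.829 ± 0.387 FPKM, the rodent CCR1 ligands 42.9 ± 19.5 and 2.14 ± 0.159 FPKM, and the CCR4 and CCR6 ligands 3.59 ± 0.677 and 2.42 ± 0.0955 FPKM.

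**Figure D3:**
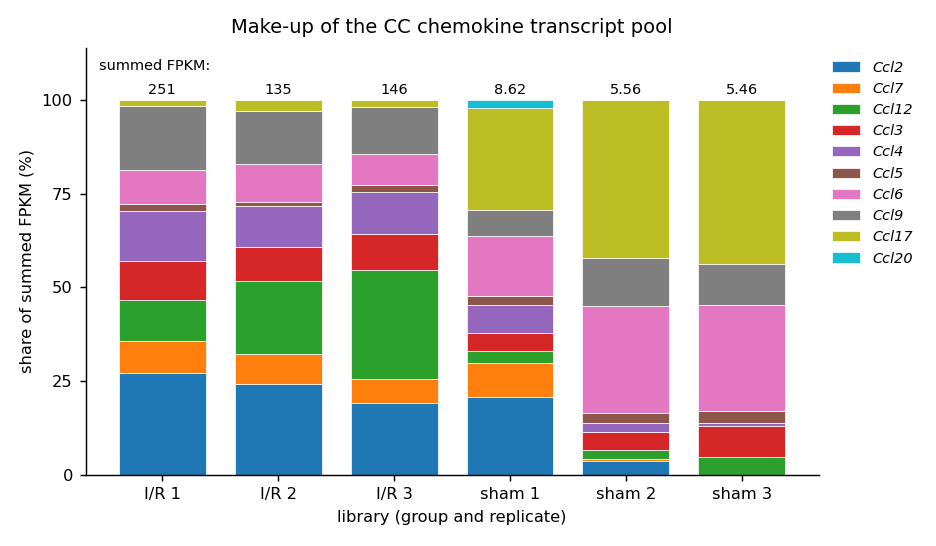
Share (%) of each CC chemokine gene in the summed FPKM of the 10 genes, 1 bar per library, with the summed FPKM above each bar. Ccl17 takes 27.2% to 43.8% of the sham bars and 1.53% to 2.85% of the I/R bars, and sham replicate 1 differs from the other sham bars in its share of Ccl2.

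The make-up of this pool differed between the groups. Ccl17 was the first member in sham by mean level, at 2.36 ± 0.0263 FPKM, followed by Ccl6 at 1.50 ± 0.106 FPKM, and their sham ranges did not overlap. In I/R the first was Ccl2 at 43.1 ± 22.1 FPKM, followed by Ccl12 at 32.3 ± 9.16, Ccl9 at 26.7 ± 13.8, Ccl4 at 21.6 ± 10.5, Ccl3 at 17.3 ± 7.45, Ccl6 at 16.2 ± 5.71 and Ccl7 at 13.7 ± 6.38 FPKM. Each of these overlapped its neighbour in range. Within single libraries Ccl9 was above Ccl4, Ccl4 above Ccl3 and Ccl6 above Ccl7 in all 3 I/R libraries, while Ccl2 was above Ccl12, Ccl12 above Ccl9 and Ccl3 above Ccl6 in 2 of 3. The gap from Ccl7 to Ccl17, at 3.49 ± 0.607 FPKM, was without overlap. Ccl5, at 1.60 to 4.85 FPKM in I/R, overlapped Ccl17, and Ccl20 was last at 0.0937 ± 0.140 FPKM.

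Within a library the members kept some ratios and not others. Ccl2 was at 3.27, 3.02 and 3.06 times the FPKM of Ccl7 in the I/R libraries, and at 2.35 times in sham replicate 1, the sham library with enough counts of both. Ccl4 was at 1.19 to 1.30 times Ccl3 in the I/R libraries and at 1.49, 0.516 and 0.0893 times in sham, where replicates 2 and 3 had 4 and 1 counts of Ccl4. The ratio of Ccl2 to Ccl12 ran from 2.45 in I/R replicate 1 to 1.26 and 0.659 in replicates 2 and 3, and was 6.48, 1.60 and 0 in sham. Ccl9 was at 1.88, 1.41 and 1.51 times the FPKM of Ccl6 in I/R and at 0.430, 0.446 and 0.388 times in sham, so that the order of this pair turned over between the groups. The same held with counts divided by the gene length listed in the table, at 1.30 to 1.73 in I/R and 0.357 to 0.411 in sham.

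Most of the members lie in 2 groups on chromosome 11. The first holds Ccl2, Ccl7, Ccl11, Ccl12, Ccl8 and Ccl1 in 267.5 kb and the second Ccl5, Ccl9, Ccl6, Ccl3 and Ccl4 in 145.9 kb, with 1308.4 kb between them. All 5 ligands of the second group were called higher. In the first group Ccl2, Ccl7, Ccl11 and Ccl12 were called higher, and Ccl8 and Ccl1 were below the count filter. Of the 44 rows between the groups, 27 were tested, 11 were called higher and 2 lower, with a median log2 fold change of 0.62. Over all genes tested 21.8% were called higher and the median was 0.03. An author-assembled locus between Ccl5 and Ccl9 had 33, 6 and 4 counts in I/R against 6, 0 and 0 in sham and was not tested. Gm17268 overlaps Ccl2 on the other strand and had 0 counts in every library, and E230016K23Rik overlaps Ccl6 on the other strand with 6 to 12 counts in I/R against 0 to 5 in sham. Whether counting used strand is not stated, so a gene and its antisense partner may share reads. Of all 50-base stretches of the members' transcripts in GENCODE M21, those of 9 members were in no other gene, and 1.97% of those of Ccl9 also lay in other genes.

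**Figure D4:**
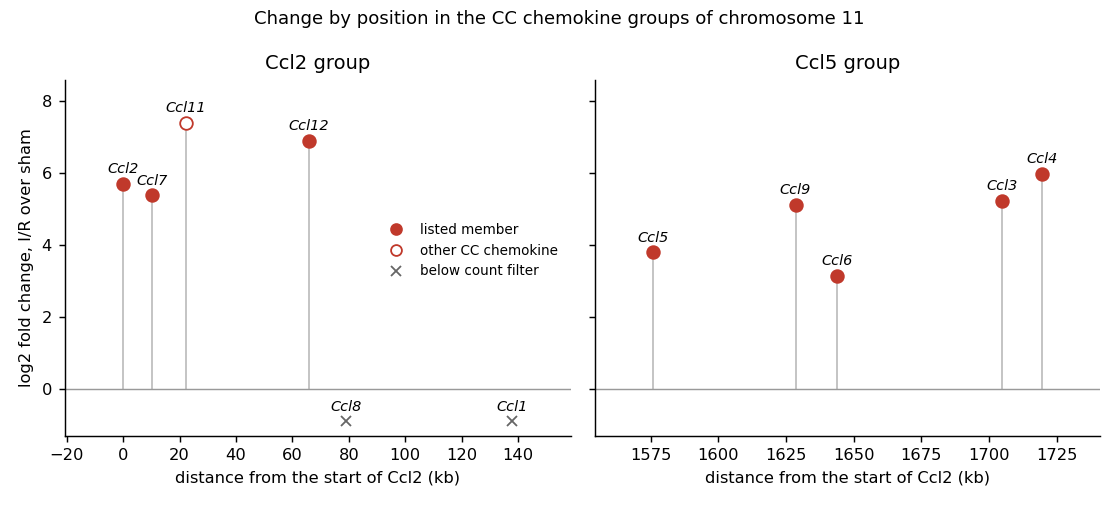
Log2 fold change (I/R over sham) of the CC chemokine genes of chromosome 11 against the distance of their lower coordinate from that of Ccl2 (kb), in the Ccl2 group (left) and the Ccl5 group (right); crosses placed below the 0 line are genes under the count filter, which have no value. Every tested gene lies above 3, and the value of Ccl11, an open circle, is a fitted one against sham libraries with 2, 2 and 0 counts.

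Promoter sequences from RefSeq (GRCm38.p6), 250 bases before to 50 after the gene start, were found for 6 of the 10 members: Ccl3, Ccl6, Ccl9, Ccl12, Ccl17 and Ccl20. Ccl2, Ccl4, Ccl5 and Ccl7 were not matched. The windows were searched on both strands for motifs of 5 kinds, in which N is any base. NF-kappa B, a factor switched on by inflammatory signals, was searched as GGNNTTTCC. AP-1, the factor formed by Fos and Jun proteins, was searched as TGANTCA. The Ets factors, which include PU.1 of myeloid cells, were searched as AGGAAGT. The interferon regulatory factors (IRF) were searched as GAAANNGAA. The TATA box, which places the start of transcription, was searched as TATAAA. The bases before the start are printed below for Ccl12, a CCR2 ligand that was low in every sham library, for Ccl9 and Ccl6, the pair whose order turned over, and for Ccl17, which was not called. They run 5′ to 3′ on the gene strand and end at the base before the start, with motif matches in capitals.
Ccl12, chr11:82101595-82101844, plus strand: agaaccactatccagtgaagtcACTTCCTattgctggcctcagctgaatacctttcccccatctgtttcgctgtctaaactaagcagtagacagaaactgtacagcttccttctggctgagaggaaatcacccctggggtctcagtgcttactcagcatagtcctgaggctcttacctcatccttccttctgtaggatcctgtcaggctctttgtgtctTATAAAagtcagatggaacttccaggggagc
Ccl9, chr11:83578637-83578886, minus strand: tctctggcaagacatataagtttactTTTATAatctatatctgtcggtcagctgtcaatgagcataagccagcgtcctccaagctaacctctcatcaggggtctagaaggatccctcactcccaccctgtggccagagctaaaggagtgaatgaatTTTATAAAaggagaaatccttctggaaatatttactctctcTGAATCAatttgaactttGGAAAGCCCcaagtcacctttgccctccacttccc
Ccl6, chr11:83593088-83593337, minus strand: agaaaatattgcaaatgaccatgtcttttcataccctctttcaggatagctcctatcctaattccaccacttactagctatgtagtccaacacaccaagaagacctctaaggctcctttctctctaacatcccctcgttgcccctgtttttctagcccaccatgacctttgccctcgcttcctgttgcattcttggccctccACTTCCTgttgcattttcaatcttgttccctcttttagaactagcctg
Ccl17, chr8:94810203-94810452, plus strand: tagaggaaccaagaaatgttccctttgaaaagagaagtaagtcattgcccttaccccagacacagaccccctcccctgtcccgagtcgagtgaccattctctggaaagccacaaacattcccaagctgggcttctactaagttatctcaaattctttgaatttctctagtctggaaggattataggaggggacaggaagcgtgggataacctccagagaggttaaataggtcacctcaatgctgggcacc
Ccl12 had an Ets match beginning 228 bases and a TATA match beginning 31 bases before its start. Ccl9 had an AP-1 match at 53 bases, an NF-kappa B match at 35 bases, and TATA matches at 224, 94 and 92 bases, the last 2 overlapping each other on opposite strands. Ccl6 had an Ets match at 48 bases, and Ccl17 had no match in this window. Of the windows not printed, Ccl3 had an IRF match at 39 bases, and Ccl20 an Ets match at 140 bases and an NF-kappa B match at 80 bases. Matches of different motifs did not overlap. Of all 32851 promoter windows in that table, 5.82% held the NF-kappa B motif, 7.81% AP-1, 9.35% Ets, 8.56% IRF and 13.6% TATA, against 2, 1, 3, 1 and 2 of these 6 members. A match is a match of letters and not a shown binding site. The windows of Ccl6 and Ccl9 were the most alike of the 15 pairs, with 51 of 100 bases identical in their best ungapped stretch, against 39 to 47 in the other pairs.

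The receptors of these ligands were counted next. Of the 14 receptor genes followed, 7 were tested, 2 were called higher and 2 lower, where 41.8% of all genes tested were called in either direction. Ccr1, the receptor of CCL3, CCL5, CCL6 and CCL9, had 443, 262 and 149 counts in I/R against 10, 7 and 2 in sham, and rose by 5.31 ± 0.53 on the log2 scale (SE, adjusted p = 0.000537 by edgeR). Ccr2, the receptor of CCL2, CCL7 and CCL12, had 83, 23 and 87 counts in I/R against 8, 9 and 1 in sham, for a log2 fold change of 3.27 ± 0.71 (SE, adjusted p = 0.00809 by edgeR). All I/R libraries were above all sham libraries for both genes, and I/R replicate 1 was the highest for Ccr1 but not for Ccr2.

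The receptors of CCL17 and CCL20 were scarce. Ccr4, which binds CCL17, had 0 counts in every library. Ccr6, which binds CCL20, had 0, 0 and 1 counts in I/R against 3, 0 and 1 in sham. Ccr7, on lymphocytes and mature dendritic cells, had 30, 17 and 6 counts in I/R against 1, 1 and 0 in sham, at least 5.19-fold higher in I/R against a floor of 3 counts per sham library, and was below the count filter. Without that filter Ccr7 was called higher by edgeR (adjusted p of 0.00615) and by DESeq2 (adjusted p of 0.00326), from the same few counts. Ccr8 had 0, 0 and 0 counts in I/R against 8, 0 and 0 in sham, Ccr9 had 5, 5 and 14 against 4, 6 and 11, Ccr3 had 0 to 2 counts in any library, and Ccr1l1 had 0 throughout.

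Of the atypical receptors, which take up chemokines without guiding cells, 0 of 3 were called higher (edgeR, 0 at an unadjusted p under 0.05, and 0 by DESeq2 or limma-voom). Ackr2, a scavenger of inflammatory CC chemokines, had 7, 16 and 17 counts in I/R against 55, 39 and 24 in sham, for a log2 fold change of -1.65 ± 0.50 (SE, adjusted p = 0.0304 by edgeR). Its call was lost without I/R replicate 2 (adjusted p of 0.0542), sham replicate 1 (0.116) or sham replicate 2 (0.0764), and with the replicate number as a block (0.0745). Ackr1, known from venular endothelium and red cells, was at -0.31 ± 0.09 (SE, adjusted p = 0.0275 by edgeR), and at -0.05 with library size as the only scaling (0.662), so its call rested on the scaling. Its adjusted p was also 0.0645 without I/R replicate 2 and 0.0988, 0.0671 and 0.0834 without sham replicates 1, 2 and 3, and 0.0823 with that block. Ackr4, Ccrl2 and Ccr10 were not called, at -0.17 (0.08 with library size as the only scaling), 0.51 and 0.90. Without I/R replicate 1 the values of Ccrl2 and Ccr10 were -0.06 and -0.07.

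**Figure D5:**
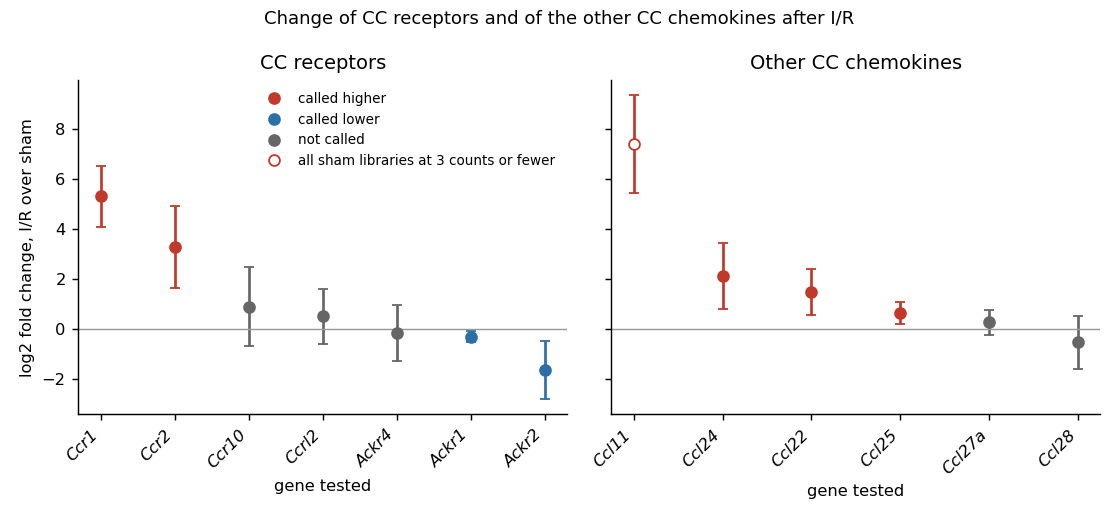
Log2 fold change (I/R over sham, edgeR) with 95% intervals of the tested CC receptors (left) and the tested CC chemokines outside the 10 members (right), called genes in red (higher) or blue (lower) and others in grey; the open circle is Ccl11, whose sham libraries all have 2 counts or fewer. Ccr1 and Ccr2 lie above 3, and Ackr2 lies at -1.65.

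Of 14 further CC chemokine genes, 10 had a row, 6 were tested, 4 were called higher and 0 lower (edgeR, with 0 lower at an unadjusted p under 0.05 and 0 lower by DESeq2 or limma-voom). Ccl11, which encodes the eosinophil attractant eotaxin and lies between Ccl7 and Ccl12, had 554, 145 and 138 counts in I/R against 2, 2 and 0 in sham. All its sham libraries were at or under the floor of 3 counts, against which it was at least 80.9-fold higher, or 44.6-fold without I/R replicate 1. Ccl24 rose by 2.12 ± 0.57 (SE, adjusted p = 0.0193 by edgeR), and by 2.79 without sham replicate 1. Ccl22, which lies near Ccl17 with Cx3cl1 between them and also acts on CCR4, rose by 1.49 (SE 0.40, edgeR adjusted p of 0.0199). Ccl25 rose by 0.63 (SE 0.19, edgeR adjusted p of 0.0302). These 3 calls were lost when single libraries were left out. For Ccl22 the adjusted p was 0.0597 without I/R replicate 1, 0.0509 without I/R replicate 3, and 0.0725 and 0.0759 without sham replicates 1 and 2. For Ccl24 it was 0.0776 and 0.0545 without sham replicates 2 and 3. For Ccl25 it was 0.095 without I/R replicate 2 and 0.0681, 0.111 and 0.0707 without sham replicates 1, 2 and 3. Ccl27a at 0.27 and Ccl28 at -0.53 were not called. Ccl8 had 23, 2 and 4 counts in I/R against 2, 0 and 0 in sham, Ccl1 and Ccl26 had 0 to 6 counts in any library, and Ccl27b had 0. Ccl19, Ccl21a, Ccl21b and Ccl21c were not analysed here.

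The other inducible chemokine family, CXC with CX3C, was used for comparison. Of 16 genes with a row, 10 were tested, 7 were called higher and 2 lower, with a median log2 fold change of 3.72. The neutrophil attractants Cxcl2 and Cxcl3 had 0 counts in all sham libraries. Cxcl2 had 483, 165 and 53 counts in I/R and was at least 67.5-fold higher, and Cxcl3 had 199, 77 and 40 and was at least 30.7-fold higher. Without I/R replicate 1 these bounds were 34.4-fold and 18.5-fold. Without a count filter Cxcl2 was not called (edgeR adjusted p of 0.0692). Cxcl1, at 17, 3 and 5 counts in sham, rose by 6.56 (SE 0.64), and by 7.57 if sham replicate 1 is left out. The interferon-induced Cxcl10 rose by 5.59 (SE 0.41). No test of a difference between the families was made.

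Among 12 tested genes of NF-kappa B, which drives many chemokine promoters, and of factors that degrade chemokine mRNA, 11 were called higher and 0 lower (edgeR, also 0 lower at an unadjusted p under 0.05 and by DESeq2 or limma-voom), with a median of 0.94. The share called higher over all genes tested was 21.8%. With the replicate number as a block 9 of these genes were called higher, and 5 at a fold change over 2. Zfp36, which encodes the mRNA decay factor tristetraprolin, rose by 2.86 (SE 0.28), Nfkb2 by 2.45 (SE 0.34), Zc3h12a, which encodes the ribonuclease Regnase-1, by 1.94 (SE 0.21), and Zfp36l1 by 1.24 ± 0.42 (SE, adjusted p = 0.0436 by edgeR). Zfp36l1 was no longer called when I/R replicate 2 (adjusted p of 0.125) or 3 (0.0866), or sham replicate 2 (0.131) or 3 (0.137), was left out, and was at 1.85 without sham replicate 1.

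Most tested markers of monocytes, border macrophages and neutrophils, cells known to carry or respond to CC chemokines, were called higher in I/R. The share called higher over all genes tested was 21.8%. Of the monocyte list, 5 of 5 tested genes were called higher, and the 7 genes with a row summed to 197 to 338 CPM in I/R against 124 to 130 CPM in sham. Most of that sum was Fn1, which other cells also express. Chil3, also a monocyte gene, had 7.47, 1.80 and 1.75 CPM in I/R against 0 to 0.172 CPM in sham, and Plac8 and S100a4 had 0 counts in sham and 0 to 0.373 CPM in I/R. Ccr2 stands in this list and in the receptor list. F13a1 stands in both the monocyte and the border macrophage list, and Pf4 in the border macrophage list and the CXC and CX3C list. Of the border macrophage list, 5 of 7 were called higher, at a sum of 35.3 to 66.3 CPM in I/R against 11.7 to 14.8 CPM in sham. Of the neutrophil list, 4 of 5 tested genes were called higher, at a sum of 40.4, 9.96 and 10.3 CPM in I/R against 4.13 to 5.74 CPM in sham, with Ly6g at 0 to 0.0220 CPM. In each of these 3 lists I/R replicate 1 was the highest library, as for 7 of the members. The pattern was not particular to these 3 lists. The NF-kappa B and decay genes and the microglial, endothelial and T and NK cell markers also summed highest there, at 348, 381, 490 and 4.26 CPM. Most of the T and NK cell sum was Lck, at 3.71 CPM in that library. Sums of the astrocyte, neuronal and choroid plexus lists were highest in other libraries, also within the I/R group. The oligodendrocyte and dendritic cell lists summed highest in sham libraries. Within the I/R group they too were highest in replicate 1, at 6914 and 15.1 CPM. The part of any of these cells in the rise of the members was not tested.

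The remaining marker lists covered microglia, lymphocytes, dendritic cells, endothelium and other glia. The 10 microglial markers summed to 277 to 381 CPM in I/R against 279 to 316 CPM in sham, with 3 called higher and 4 lower. P2ry12 and Siglech, markers of resting microglia, were lower, at -1.67 (SE 0.26) and -1.91 (SE 0.18). Of the T and NK cell list 1 gene, Lck, was tested and higher, and Cd3e had 0 to 2 counts in any library. Of the dendritic cell list, 2 of 3 tested genes were called lower and 0 higher (edgeR, 1 higher at an unadjusted p under 0.05, 0 by DESeq2 or limma-voom), and Xcr1 and Cd209a had 0 to 0.174 CPM. Endothelial markers were called higher in 6 of 7 and lower in 1, at a sum of 335 to 490 CPM in I/R against 253 to 254 CPM in sham. Astrocyte markers were called higher in 2 of 7 and lower in 4, oligodendrocyte markers lower in 2 of 6, and of the erythrocyte list 1 gene was tested and not called. With library size as the only scaling, which moved the median of all genes from 0.03 to 0.28, the counts were 5 higher and 3 lower for microglia, 3 and 3 for astrocytes, 1 and 0 for oligodendrocytes, and 1 and 1 for dendritic cells.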

How the data were processed

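Gene expression was measured by bulk RNA-seq in 3 I/R and 3 sham libraries of mouse hippocampus, placed in groups by their titles. As the study's methods state, the authors aligned reads with TopHat2 and counted them per gene with HTSeq, and the deposited counts are raw; the submitters' processing notes name Bowtie 0.12.2 and the build mm8, while the identifiers are of the BALB/cJ annotation. The deposited FPKM were made by the authors from these counts, the library total and a gene length, which differed from the length listed in the table for 6 of the 10 members (1702 against 3006 bases for Ccl9). Whether counting used strand, and how reads that fit several genes were treated, is not given in the sources used here. The authors' own comparison columns (fold change, p-value, adjusted p-value) were not used. The table had 4 split lines, which were rejoined.

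Counts were fitted with edgeR 4.0.16 in R 4.3.3 (filterByExpr, TMM scaling, robust quasi-likelihood F-test, no covariates), with Benjamini-Hochberg adjustment over 18569 genes. Calls required an adjusted p below 0.05 together with a fold change above 1.2. The SE is the log2 fold change divided by the square root of F. CPM are relative to TMM-scaled library sizes. A library at 3 counts or fewer was taken as at the floor (about 0.0659 to 0.0872 CPM), and folds against a group at the floor are lower bounds. The floor covers counting error only, because PCR copies of a molecule could not be separated. Alternatives used DESeq2 1.42.0 and limma 3.58.1, other scalings and filters, FPKM, a replicate block, and each library left out. The fit was tested on simulated data. The promoter motifs were searched as letters in RefSeq windows.

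The members and all gene lists were chosen with earlier results of these data known. All members were to be named, every other CC chemokine and receptor gene of the lists, the 4 called genes with the largest change among CXC and CX3C chemokines and among regulators, and defining or near-absent markers; 1 gene is not reported here. Same-numbered libraries did not deviate together (correlations of -0.09, 0.06 and -0.18), so the numbers were not taken as pairs.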

Additional observations from a re-analysis of the deposited data

How the results depend on the processing

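The count of 8 members called higher was the same in 14 of 17 alternatives, and 9 on log2(FPKM + 1) and log2(FPKM + 0.1), where Ccl17 was added. With at least 10 counts in every library it was 2, because 3 members were then tested. That filter also gave 1 further CC chemokine, 1 receptor and 4 CXC and CX3C chemokines, against 4, 4 and 9 in the reported fit, again with fewer genes tested. Receptor calls were 2 on log2(FPKM + 1) and 2 without both replicates numbered 1, an alternative chosen after seeing the data, with Ackr1 and Ackr2 lost in both. A fold change over 2 left 5 regulators and 2760 of all genes, since that rule is stricter. Leaving out 1 library gave 8 members each time, 1 (without sham replicate 2) to 3 further CC chemokines, 2 (without I/R replicate 2) to 5 receptors, 9 to 10 CXC and CX3C chemokines, 8 to 10 regulators and 5330 to 7976 of all genes. Further CC chemokines were 2 without sham replicate 1 and 2 without sham replicate 3. The ratio of summed FPKM was 27.1, 25.3 with CPM, and 21.5 to 32.2 with 1 library left out. Of 138 alternative fits of single members, 136 kept the call, and none reversed a direction; the other 2 are those of Ccl17 on FPKM. The widest ranges of log2 fold change were those of Ccl7 (3.51 to 9.23), Ccl2 (4.77 to 8.24) and Ccl4 (4.09 to 7.53), whose highest values were without sham replicate 1, followed by Ccl12 (4.73 to 7.23) and Ccl5 (1.69 to 4.07). Their lowest values were on log2(FPKM + 1), which understates low genes.

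With the replicate number as a block, 8 members and 2 receptors were called (Ackr1 and Ackr2 lost), and 6332 of all genes instead of 7756. The highest correlation of deviations was 0.26, between I/R replicate 3 and sham replicate 1, so the libraries did not correlate best with their own number. With library size as the only scaling, 8361 genes were called, 6334 higher and 2027 lower, against 4054 and 3702 with TMM. Depth limits Ccl20, Ccl8 and most receptors below the filter, for which a few counts per library decide the value.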
